A study of Mus musculus with 3 samples.

Results

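The transcription factors described here are 10 regulators of glial development, Sox2, Sox5, Sox6, Sox8, Sox9, Nfia, Nfib, Nfix, Rorb and Lhx2, named by symbol among the 21750 features of a mouse single-cell RNA matrix. All 10 were found by symbol. Their transcripts were counted in 5 cell types (astrocytes, ependymal cells, choroid plexus cells, oligodendrocytes and microglia) that were gated on marker genes outside the list, so the gate used no value of these factors.

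The single-cell library came from the hippocampus of 5 Aldh1l1CreERT2;Rosa26-LSL-tdTomato mice, pooled, so no cell can be traced to a mouse. Aldh1l1CreERT2 is a tamoxifen-inducible Cre recombinase under an astrocyte promoter, and the tdTomato reporter is switched on by Cre. All mice had received AAV-TIGRi-Hopx, a Cre-dependent viral vector that carries EGFP and is meant to lower Hopx, then tamoxifen, and were killed 3 weeks after it; dissociated cells were sorted to enrich those with tdTomato and EGFP. This is 1 library with no library of mice without the vector, and the anti-Flag and IgG chromatin samples of primary astrocytes in the series were not analysed here.

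In the embryonic brain, neural stem cells first make neurons and later glia, and this gliogenic switch depends on SOX9 and the nuclear factor I proteins NFIA and NFIB, which act together on astrocyte genes. SOX2 and SOX9 keep neural stem cells in their undifferentiated state and remain in many mature glia. SOX5 and SOX6 are SoxD proteins without an activation domain of their own, which modulate the action of other SOX proteins, while SOX8 belongs with SOX9 and SOX10 to the SoxE proteins of the oligodendrocyte lineage. RORB is an orphan nuclear receptor, and LHX2 is a LIM-homeodomain protein that patterns the forebrain and regulates the switch between neurons and astrocytes in the hippocampus.

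The matrix held 6672 barcodes with 41915122 unique molecular identifiers (UMIs, each marking 1 captured transcript). Of the barcodes, 6485 had at least 500 genes and at most 15% mitochondrial UMIs. A barcode was given a class if UMIs were found for at least 3 of its 8 markers and at least 2 more than for any other class. The gate took 131 astrocytes (median depth 3071 UMIs per cell), 653 ependymal cells (5796), 577 choroid plexus cells (10857), 85 oligodendrocytes (6566) and 2519 microglia (6454). A further 1549 endothelial cells, with a median of 3558 UMIs, served as a non-glial comparison. Each of these types had UMIs of all 8 of its own markers, with a median of 6 to 8 of them per cell. Levels are summed UMIs of a type per 1000000 of its UMIs (CPM), with exact 95% Poisson intervals in brackets, and ratios of levels have exact 95% binomial intervals. These intervals cover counting error only, and no p-value is given, since there is 1 library and cells are not replicates. Levels are compared between cell types for 1 factor at a time and are not ranked between factors. Where factors are set beside each other within a type, as shares or sums, this describes counted UMIs only. The knockdown target Hopx, a homeodomain-only protein gene, was present in the gated astrocytes at 532 CPM (472 to 597), against 139.8 (129 to 151.5) in ependymal cells, 327 (313 to 341) in choroid plexus, 178 (146 to 214) in oligodendrocytes and 2.85 in microglia, and how far the vector lowered it has no library to be read against. EGFP from the vector was found in 2 of the 131 gated astrocytes, at 1 UMI each. The astrocyte levels are therefore not levels of cells known to carry the vector.

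Astrocytes and ependymal cells held the 10 factors in different balances. All 10 were found in both types, but astrocytes had far more Rorb, Sox8 and Lhx2 and ependymal cells had more Sox9 and Sox2. Oligodendrocytes held mainly Nfix, Nfia, Sox8 and Nfib and had 0 or 1 UMI of Sox5, Sox9, Rorb and Lhx2. Microglia held mainly Nfia and Nfix, and choroid plexus cells mainly Nfix, Sox9, Nfia and Nfib. Summed over the 10 factors the level was 4855 CPM in astrocytes, 3592 in ependymal cells, 1261 in oligodendrocytes, 962 in endothelial cells, 421 in choroid plexus cells and 272 in microglia. Nfia made up 71.5% of the factors' UMIs in microglia, Nfix 42.9% in oligodendrocytes and 34.1% in choroid plexus, and Nfib 50.6% in endothelial cells, whereas Nfia's share was 26.4% in astrocytes and 23.1% in ependymal cells.

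**Figure D1:**
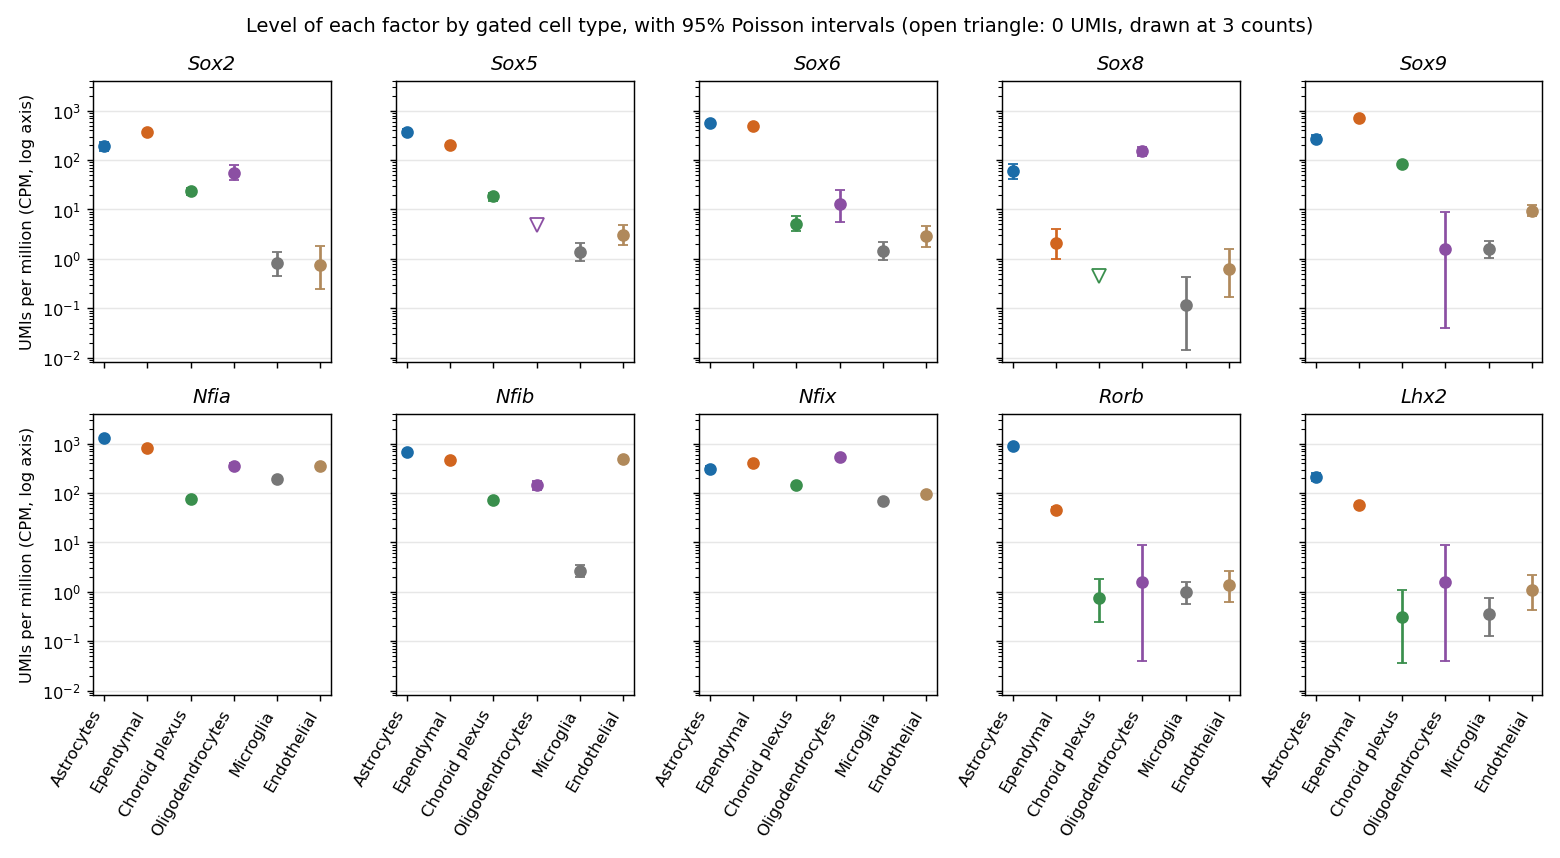
Level of each of the 10 factors in CPM (log axis) in 5 glial and epithelial cell types and in endothelial cells, with exact 95% Poisson intervals; types with 0 UMIs are drawn at the floor of 3 counts. Rorb stands at 906 CPM in astrocytes and 44.9 in ependymal cells, while Sox9 stands at 272 CPM in astrocytes and 715 in ependymal cells.

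Sox9 (ENSMUSG00000000567), which opens the gliogenic programme, was highest in ependymal cells. It stood at 272 CPM (230.1 to 320.0) in astrocytes, 715 (690.0 to 741) in ependymal cells, 82.1 (75.3 to 89.3) in choroid plexus, 9.52 (7.30 to 12.2) in endothelial cells and 1.57 (1.04 to 2.29) in microglia. Oligodendrocytes had 1 Sox9 UMI in 85 cells. The astrocyte level was 0.381 times the ependymal level (0.320 to 0.449) and 3.32 times that of choroid plexus (2.74 to 3.99). Ependymal cells differed from astrocytes, astrocytes from choroid plexus and choroid plexus from endothelial cells beyond counting error. The intervals of endothelial cells and oligodendrocytes overlapped, and their ratio of 5.94 (1.03 to 238) rested on 1 oligodendrocyte UMI. Oligodendrocytes and microglia could not be set apart, with an oligodendrocyte over microglia ratio of 1.02 (0.0249 to 6.19).

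Sox2 (ENSMUSG00000074637), the SoxB1 stem cell factor, was also higher in ependymal cells. Its level was 189 CPM (154 to 229) in astrocytes, 371 (353 to 390.2) in ependymal cells, 56.1 (39.1 to 78.1) in oligodendrocytes, 23.5 (20.0 to 27.6) in choroid plexus and 0.815 (0.446 to 1.37) in microglia. The astrocyte level was 0.509 times the ependymal one (0.412 to 0.622). Every neighbour in this order down to microglia differed beyond its interval. In microglia and endothelial cells (0.768 CPM, from 5 UMIs) the intervals overlapped.

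Sox8 (ENSMUSG00000024176), the SoxE partner of Sox10, was highest in oligodendrocytes and second in astrocytes. Astrocytes had 32 UMIs, or 59.3 CPM (40.5 to 83.7), and oligodendrocytes 95 UMIs, or 152 CPM (123 to 186), a ratio of 0.389 (0.252 to 0.586). Ependymal cells, with 653 cells, had 9 UMIs, or 2.13 CPM (0.972 to 4.03), and the astrocyte level was 27.9 times as high (13.01 to 66.4). In choroid plexus no Sox8 UMI was found in 6542088 UMIs, where the floor of 3 counts stands at 0.459 CPM. The astrocyte level was 129-fold higher with the 0 set to 3 counts, and the exact interval of the ratio began at 99.2. The 8 oligodendrocyte markers summed to 22.2 CPM in astrocytes, against 9962 in oligodendrocytes. Of these markers Ugt8a, Opalin and Hapln2 had 0 UMIs in astrocytes, and Mog, Mag and Cldn11 1 UMI each.

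The SoxD genes Sox5 and Sox6 were highest in astrocytes, with ependymal cells next. Sox5 (ENSMUSG00000041540) had 372 CPM (323 to 427.5) in astrocytes and 205 (191.5 to 219) in ependymal cells, a ratio of 1.82 (1.55 to 2.12). It had 18.3 CPM (15.2 to 21.9) in choroid plexus, 3.07 in endothelial cells and 1.40 in microglia. No Sox5 UMI was found in oligodendrocytes, where the floor of 3 counts stands at 4.81 CPM. The astrocyte level was 77.4-fold higher with the 0 set to 3 counts, and the exact interval of the ratio began at 62.3. Sox6 (ENSMUSG00000051910) had 567 CPM (505 to 634) in astrocytes and 484 (463 to 505) in ependymal cells, the narrowest difference of the 10 factors, at 1.17 times (1.04 to 1.32). Oligodendrocytes had 12.8 CPM of Sox6 (5.54 to 25.3), from 8 UMIs, and choroid plexus 5.20 (3.60 to 7.26). Oligodendrocytes and choroid plexus did not differ in Sox6 beyond counting error, at 2.47 times (0.988 to 5.44).

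The nuclear factor I genes were found in all 6 types, with Nfib low in microglia. Nfia (ENSMUSG00000028565), the inducer of astrocyte genes, had 1279.9 CPM (1186 to 1379) in astrocytes and 829 (801 to 856) in ependymal cells, 1.54 times (1.42 to 1.68). It stood at 351 CPM (306 to 401) in oligodendrocytes, 194 (188 to 201) in microglia and 75.8 (69.3 to 82.8) in choroid plexus. Endothelial cells, at 359 CPM (344 to 374), could not be told apart from oligodendrocytes (endothelial over oligodendrocyte 1.02, 0.889 to 1.18). Microglia thus carried 2.56 times the choroid plexus level (2.33 to 2.82), the reverse of the order seen for Nfib and Nfix.

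Nfib (ENSMUSG00000008575), which works beside Nfia in glial and lung development, was highest in astrocytes among the 6 types, at 687 CPM (619 to 761). Endothelial cells had 487 CPM (469.8 to 504), ependymal cells 468 (448 to 489), oligodendrocytes 143 (115 to 176), choroid plexus 71.4 (65.1 to 78.2) and microglia 2.68 (1.96 to 3.57). The astrocyte level was 1.47 times the ependymal level (1.31 to 1.64), and endothelial and ependymal cells did not differ beyond counting error, at 1.04 times (0.983 to 1.10). Nfix (ENSMUSG00000001911), linked to stem cell quiescence, followed another order. It had 309 CPM (264 to 360.0) in astrocytes, 417 (397 to 436) in ependymal cells and 541 (484 to 601.5) in oligodendrocytes. Choroid plexus had 144 CPM (134.5 to 153), endothelial cells 97.1 (89.7 to 105) and microglia 68.2 (64.3 to 72.2). Nfix in astrocytes was 0.743 times the ependymal level (0.630 to 0.871) and 0.572 times the oligodendrocyte level (0.472 to 0.691), the only one of the 3 NFI genes lower in astrocytes than in either type.

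Rorb and Lhx2, which have no protein family in common with the SOX and NFI factors, were, of the 6 types compared, highest in astrocytes, lower in ependymal cells and at under 2 CPM in the other 4. Rorb (ENSMUSG00000036192) had 489 UMIs in the 131 astrocytes, or 906 CPM (827 to 990), and 190 UMIs in the 653 ependymal cells, or 44.9 CPM (38.7 to 51.7). The ratio was 20.2 (17.0 to 24.0). The level was 1.60 CPM in oligodendrocytes, from 1 UMI, 0.990 in microglia and 0.764 in choroid plexus, from 5 UMIs, and these 3 did not differ beyond counting error. Lhx2 (ENSMUSG00000000247) had 213 CPM (176 to 256) in astrocytes and 56.4 (49.5 to 64.1) in ependymal cells, a ratio of 3.77 (3.00 to 4.73). Oligodendrocytes held 1 Lhx2 UMI, choroid plexus 2 and microglia 6.

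Ependymal cells also held RNA of astrocyte markers, 761 CPM over the 8, of which Aqp4 gave 497. The ependymal level as a share of the astrocyte level was 37.3% for Aqp4, 8.20% for Fgfr3, 3.13% for Acsbg1, 1.78% for Slc1a2, 1.46% for Bcan, 0.858% for Ntsr2, 0.733% for Slc7a10 and 0.0506% for Gjb6. For Rorb the share was 4.95% and for Lhx2 26.5%. In 246 ependymal cells with no UMI of Slc1a2, Ntsr2, Slc7a10, Gjb6 or Bcan, 5 markers chosen after their values were seen, Rorb stood at 29.3 CPM (20.6 to 40.6), against 51.2 (43.4 to 59.9) in the other 407 cells. Lhx2 was at 66.8 CPM (53.2 to 83.0) in the same 246 cells, against 52.2 (44.3 to 61.0). The cells without these markers were shallower, with a median of 4568.5 UMIs against 6389.

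The promoters of Rorb, Lhx2 and Sox8 are shown because these 3 factors exceeded the ependymal level by at least 2-fold in astrocytes. Each covers 250 bases before to 50 bases after 1 annotated start, 5′ to 3′ on the gene's strand, from RefSeq on GRCm38.p6, whereas the counts were made on GRCm39. Rorb and Lhx2 had 2 starts listed each and Sox8 had 1, and the first listed was used. Rorb lies at chr19:19111147-19111446 on the minus strand, Lhx2 at chr2:38339031-38339330 on the plus strand and Sox8 at chr17:25570637-25570936 on the minus strand. Capitals mark the NFI core motif TTGGC or its complement GCCAA.
Rorb: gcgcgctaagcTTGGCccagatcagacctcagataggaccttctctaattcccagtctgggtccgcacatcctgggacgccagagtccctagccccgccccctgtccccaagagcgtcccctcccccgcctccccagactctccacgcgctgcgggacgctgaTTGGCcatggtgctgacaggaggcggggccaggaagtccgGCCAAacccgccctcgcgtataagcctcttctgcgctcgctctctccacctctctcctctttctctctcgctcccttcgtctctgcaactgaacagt
Lhx2: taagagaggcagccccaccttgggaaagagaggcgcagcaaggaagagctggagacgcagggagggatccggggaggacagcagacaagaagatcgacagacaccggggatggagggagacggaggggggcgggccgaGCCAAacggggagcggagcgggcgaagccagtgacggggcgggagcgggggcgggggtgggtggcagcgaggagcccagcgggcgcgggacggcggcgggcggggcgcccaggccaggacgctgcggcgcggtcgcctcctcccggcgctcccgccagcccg
Sox8: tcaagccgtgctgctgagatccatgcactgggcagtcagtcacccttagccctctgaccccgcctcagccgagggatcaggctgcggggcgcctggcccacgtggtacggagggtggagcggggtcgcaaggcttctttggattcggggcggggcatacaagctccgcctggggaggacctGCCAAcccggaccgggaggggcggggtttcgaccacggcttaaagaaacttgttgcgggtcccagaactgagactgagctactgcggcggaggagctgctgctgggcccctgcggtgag
The Rorb promoter held 3 matches, and those of Lhx2 and Sox8 held 1 each. Promoter sequences were matched for 8 of the 10 factors, and 5 of these 8 held the NFI core, against 46.7% of 32851 RefSeq promoters of the same length. Each factor entered with its first listed start only, out of as many as 6 for Sox6. The 32851 promoters could include more than 1 start of a gene. The SOX motif ACAAT was in 2 of the 8, against 31.0% of all promoters, and the ROR motif AGGTCA in 1 of the 8, against 16.3%. Both strands were searched and none of the 3 motifs contains another, though matches can overlap at their ends. These matches describe letters in the windows only.

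The share of cells with at least 1 UMI was read after each cell was thinned to 2000 UMIs, because astrocytes were the shallowest type; this left out 34 astrocytes, 56 ependymal cells, 8 choroid plexus cells, 4 oligodendrocytes, 81 microglia and 200 endothelial cells. Nfia was found in 87.6% of the 97 astrocytes left, Sox6 and Rorb in 74.2% each, Nfib in 60.8%, Sox5 in 57.7%, Nfix in 46.4%, Sox9 and Lhx2 in 34.0% each, Sox2 in 33.0% and Sox8 in 10.3%. Ependymal cells, 597 in number, had Nfia in 76.4%, Sox9 in 66.3%, Nfib in 61.6%, Sox6 in 58.0%, Nfix in 54.3% and Sox2 in 48.1%, but Rorb in 8.88%, Lhx2 in 10.7% and Sox8 in 0.503%. In microglia, given as a comparison because free RNA was not measured, Sox2, Sox5, Sox6, Sox8, Sox9, Nfib, Rorb and Lhx2 were in 0.0410 to 0.369% of cells. Nfia, in 30.0% of microglia, and Nfix, in 13.9%, stood above that range. Oligodendrocytes had Nfix in 70.4% and Nfia in 48.1%, and 33.3% of them had Sox8. Without thinning, Sox2 was in 43.5% of astrocytes and 73.8% of ependymal cells, and Rorb in 80.2% of astrocytes and 19.9% of ependymal cells.

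**Figure D2:**
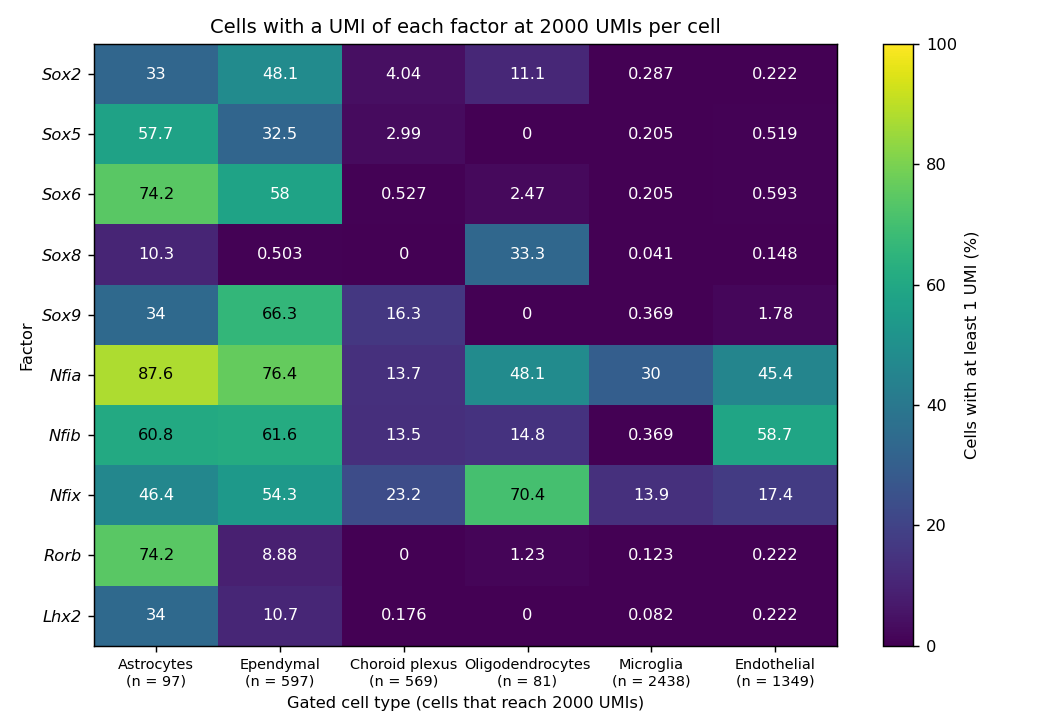
Percentage of cells, thinned to 2000 UMIs each, with at least 1 UMI of each factor, by cell type. Nfia runs from 87.6% of astrocytes to 13.7% of choroid plexus cells, and Rorb is at 74.2% in astrocytes and 8.88% in ependymal cells.

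Single astrocytes held several of the factors together. A thinned astrocyte had a median of 5 of the 10 factors, and 96 of 97 had at least 3. A thinned ependymal cell had a median of 4, and 86.4% had at least 3. The median was 2 in oligodendrocytes, 1 in choroid plexus cells, 1 in endothelial cells and 0 in microglia. At least 3 factors were found in 25.9% of oligodendrocytes, 6.30% of endothelial cells, 2.99% of choroid plexus cells and 0.123% of microglia. No astrocyte lacked all 10, while 0.670% of ependymal cells, 60.3% of microglia and 45.0% of choroid plexus cells did. In a small neuron gate described below, 28 thinned cells had a median of 3 factors. Of these neurons 78.6% had at least 3 factors and 0 lacked all 10, so several factors per cell were not a trait of glia alone.

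**Figure D3:**
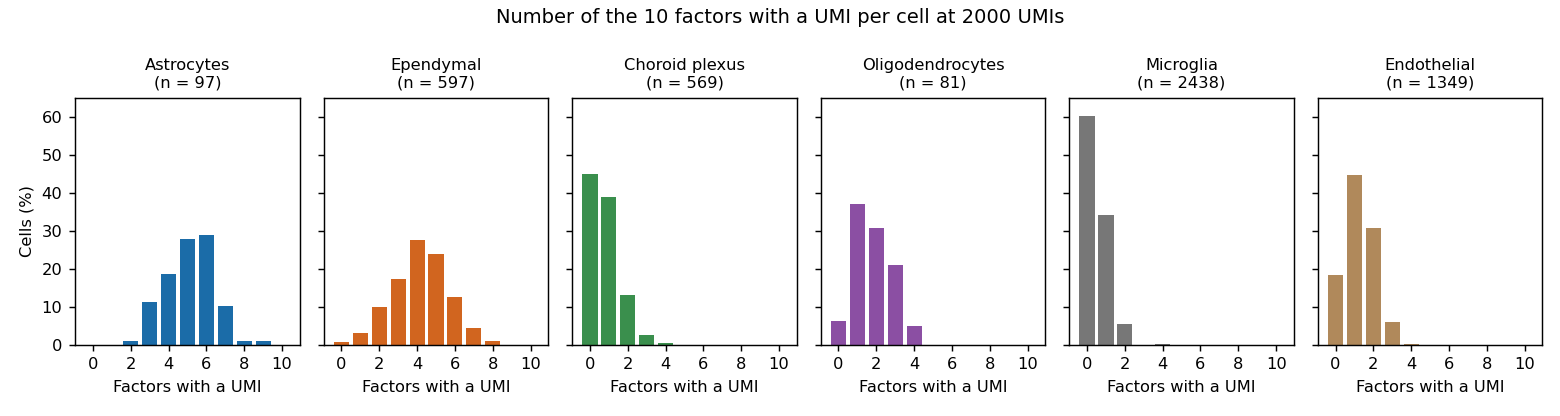
Distribution of the number of the 10 factors with a UMI per cell, thinned to 2000 UMIs, as the percentage of each type's cells. The medians are 5 in astrocytes, 4 in ependymal cells, 2 in oligodendrocytes, 1 in choroid plexus cells and 0 in microglia.

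A factor was counted as higher or lower at a ratio of at least 2-fold, with 0.5 UMI added to both sums and at least 10 UMIs in the 2 groups together. In astrocytes over ependymal cells, 3 of 10 factors were higher (Sox8, Rorb and Lhx2) and 1 was lower (Sox9), against 17.4% and 23.9% of 12763 genes measured. Sox2, at 0.509 times, lay just inside the 2-fold limit, with a log2 ratio of -0.97. It passed the limit with each cell given equal weight (-1.25), with the gate of 4 markers (-1.02) and, barely, with at most 1 marker of another class, an alternative added after the data were seen under which Sox5 was also over 2-fold higher (1.04). The median log2 ratio of the 10 was 0.59, against -0.05 over all genes. In astrocytes over choroid plexus all 10 were higher, against 48% of genes (16.9% were lower), with a median log2 of 4.21 against 0.91. The smallest of these ratios was 2.16 for Nfix (1.82 to 2.54). The choroid plexus transcript Ttr took 21.0% of choroid plexus UMIs, and with Ttr left out of the totals, an alternative added after the data were seen, Nfix had a log2 ratio of 0.77 and 9 of 10 factors were higher.

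Against oligodendrocytes, astrocytes had 8 of 10 factors higher and 1, Sox8, lower, beside 26% and 17.1% of genes. The ratios of those higher were 3.36 for Sox2 (2.27 to 5.09), 3.64 for Nfia (3.13 to 4.26) and 4.81 for Nfib (3.81 to 6.14), and from 44.2 upwards for Sox5, Sox6, Sox9, Rorb and Lhx2. The Sox9 ratio of 169.7 (30.0 to 6749) rested on 1 oligodendrocyte UMI, as did those of Rorb and Lhx2. Against microglia all 10 were higher in astrocytes, beside 37.9% of genes (18.4% were lower), and the ratio was 4.54 for Nfix (3.83 to 5.34), 6.58 for Nfia (6.06 to 7.15) and 173 to 915 for the other 8. Ependymal cells had all 9 measured factors higher than choroid plexus, beside 53.5% of genes higher and 10.3% lower, from 2.90 times for Nfix (2.68 to 3.14) to 185 times for Lhx2 (50.5 to 1533). Ependymal cells over microglia had all 10 higher, beside 40.5% of genes higher and 18.4% lower, the smallest being Nfia at 4.26 times (4.06 to 4.47). Oligodendrocytes over microglia had 6 of 9 measured factors higher and 0 lower, beside 28.7% and 22.9% of genes. Of these 6, Sox2, Sox6, Sox8, Nfib and Nfix had 8 to 337 oligodendrocyte UMIs, and Rorb had 1 UMI and a ratio of 1.62 (0.0388 to 10.3). All of these comparisons share cell types, so their counts are not separate evidence.

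Ependymal cells fell into sets led by different genes, known from earlier results of these data: 135 cells led by Npy, Rspo3 and Clec3b and 372 led by Col6a5, Nrxn3 and Krt15, each with at least 2 more UMIs over its 3 genes, which left 146 cells in neither set. Of the 9 factors measured, 2 were at least 2-fold lower in the Npy set and 0 higher, against 7.43% and 2.99% of genes. Rorb had 18.3 CPM in the Npy set and 58.0 in the Col6a5 set, a ratio of 0.315 (0.184 to 0.510). Lhx2 had 18.3 CPM in the Npy set and 70.7 in the Col6a5 set, a ratio of 0.258 (0.152 to 0.415). Both were thus higher in the Col6a5 set. Astrocyte marker RNA, summed over the 8 markers, was at 867 CPM in the Npy set and 752 in the Col6a5 set.

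The other factors differed less between the sets. Nfib had 356 CPM in the Npy set and 512 in the Col6a5 set, 0.696 times (0.618 to 0.782), and Nfia 671 in the Npy set and 907 in the Col6a5 set, 0.740 times (0.679 to 0.805). Sox6 was at 0.869 times (0.778 to 0.968) and Nfix at 1.14 times (1.02 to 1.27). For Sox2, Sox5 and Sox9 the intervals of the ratios included 1, at 0.915 (0.810 to 1.03), 0.968 (0.820 to 1.14) and 0.961 (0.881 to 1.05). Of the other glial and regional factors 13 were measured, with 2 higher and 1 lower in the Npy set, and of the paralogs 10, with 1 higher and 4 lower. All genes measured had 2.99% higher and 7.43% lower. Otx2, a homeobox gene of choroid plexus, had 115 CPM in the Npy set and 10.7 in the Col6a5 set, 10.8 times (7.04 to 17.0), and Zic1 had 78.8 in the Npy set and 10.7 in the Col6a5 set. Among the paralogs Sox1 had 23.1 CPM in the Npy set and 56.0 in the Col6a5 set, and Sox21 had 2.88 in the Npy set, from 3 UMIs, and 31.8 in the Col6a5 set, 0.0908 times (0.0183 to 0.275). The Npy set was deeper, with a median of 7066 UMIs against 5893.5. It held 324 CPM of Ttr against 934, and 209 CPM of Hopx against 117. However, 1 cell of the Col6a5 set held 1810 of the 3122 Ttr UMIs of all ependymal cells. The higher Ttr level of the Col6a5 set came from that cell, without which it would lie below that of the Npy set. The part of depth, Ttr and Hopx in these ratios was not tested.

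EGFP from the vector was found in 48 ependymal cells, against 605 without it; a cell with no EGFP UMI may still carry the vector. Of 9 factors measured, 0 were at least 2-fold higher or lower in EGFP-positive cells, beside 6.18% and 8% of genes. Sox2 was the factor whose interval excluded 1, with 473 CPM in EGFP-positive cells and 361 in EGFP-negative cells, 1.31 times (1.12 to 1.53). Within the Col6a5 set alone, an alternative added after the data were seen, its ratio was 1.21 (0.985 to 1.47) over 30 and 342 cells. Rorb was at 1.43 times (0.890 to 2.20) and Lhx2 at 1.26 times (0.810 to 1.88), wide intervals from 24 and 27 UMIs in EGFP-positive cells, and Sox5, Sox6, Sox9, Nfia, Nfib and Nfix had ratios of 0.813 to 1.06 with intervals that included 1. Hopx had 66.8 CPM in EGFP-positive and 147 in EGFP-negative cells, 0.454 times (0.294 to 0.672), and 0.490 times (0.270 to 0.822) within the Col6a5 set. EGFP-positive cells also differed in the 10 interferon-response genes (8066 CPM, against 3621), in Ttr (149 CPM, against 797), in depth (a median of 6476 UMIs, against 5687) and in set, since 3 of 135 cells of the Npy set, 30 of 372 of the Col6a5 set and 15 of the 146 cells in neither set had EGFP, and the part of these in the ratios was not tested. The cell with 1810 Ttr UMIs was EGFP-negative and held most of the Ttr UMIs of that group.

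**Figure D4:**
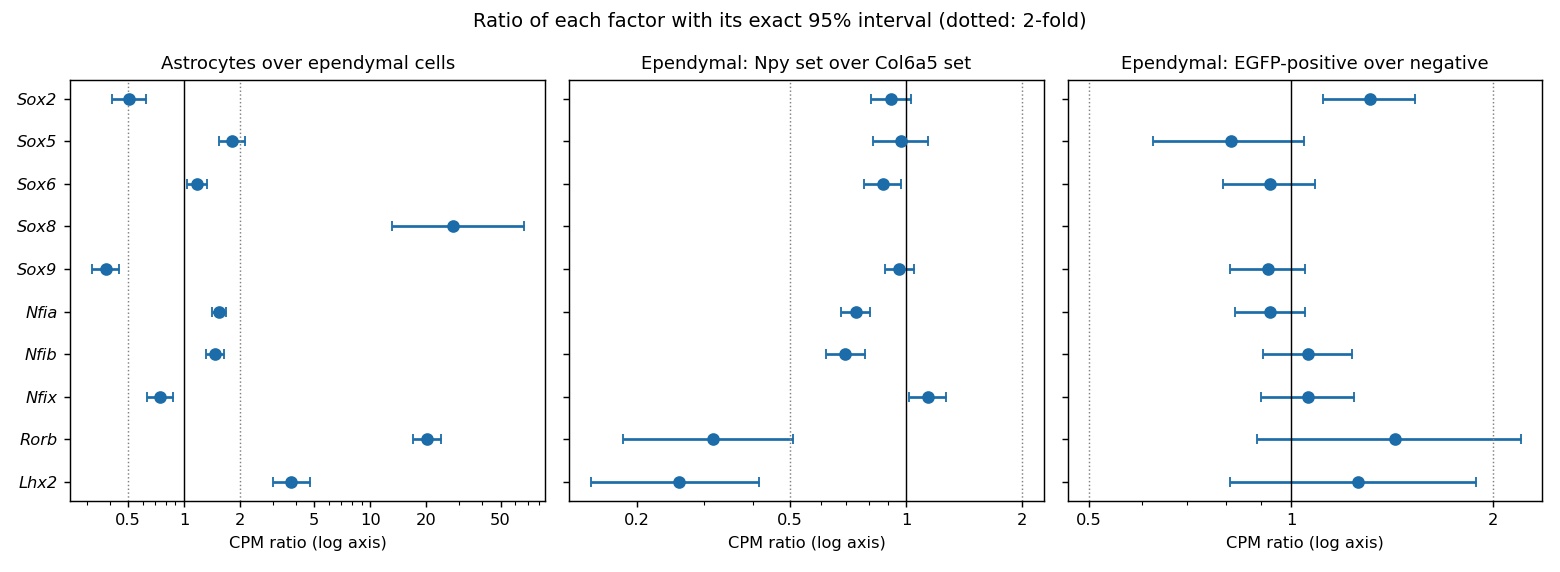
Ratio of levels with exact 95% intervals (log axis; dotted lines at 2-fold) for astrocytes over ependymal cells, the Npy set over the Col6a5 set of ependymal cells, and EGFP-positive over EGFP-negative ependymal cells. Rorb and Lhx2 lie below 1 in the second panel, at 0.315 and 0.258, and Sox2 is at 1.31 in the third.

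Within astrocytes no factor passed the 2-fold limit in the pair of splits that could be drawn. The 131 astrocytes were split at the median of their summed interferon-response genes, a range of a score and not a cell type, into 65 high and 66 low cells. None of the 10 factors was at least 2-fold higher or lower, beside 9.28% and 6.15% of genes. Nfix had 356 CPM in interferon-high and 246 in interferon-low astrocytes, 1.45 times (1.04 to 2.03), and Rorb 984 in interferon-high and 799 in interferon-low astrocytes, 1.23 times (1.02 to 1.49). After thinning to 2000 UMIs, Sox8 passed the 2-fold limit, with a log2 ratio of -1.61. The 8 other intervals included 1, from 0.568 for Sox8, with 14 and 18 UMIs, (0.261 to 1.21) to 1.28 for Sox2 (0.844 to 1.98). Interferon-high astrocytes held more endothelial marker RNA, 218 CPM against 13.2, less Hopx, 426 CPM against 676, and were deeper, with a median of 3820 UMIs against 2727.5, and the part of these was not tested.

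A split by tdTomato, added after the data were seen, compared 27 astrocytes with a tdTomato UMI and 104 without. At the 2-fold limit 0 of 10 factors were higher or lower, beside 6.62% and 7.42% of genes. Nfix had 187 CPM in tdTomato-positive and 361 in tdTomato-negative astrocytes, 0.520 times (0.338 to 0.776). That difference depended on how cells were weighed, with a log2 ratio of -0.93 over summed UMIs, -0.29 with cells weighed equally and -0.27 after thinning. Rorb had 1105.7 CPM in tdTomato-positive and 822 in tdTomato-negative astrocytes, 1.35 times (1.11 to 1.62), and the other 8 intervals included 1. After thinning, Sox2 passed the 2-fold limit, with a log2 ratio of -1.16, and with the stricter filter of 1000 genes and 5% mitochondrial UMIs Nfix and Sox8 did, at -1.47 and -1.29. The tdTomato-positive cells had a median of 6101 UMIs, against 2742, and 394 CPM of endothelial markers, against 21.1, and the part of these was not tested.

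Other glial factors and paralogs set the 10 in context. Sox10, the SoxE gene of oligodendrocytes, had 0 UMIs in astrocytes and 213 CPM in oligodendrocytes, beside Olig1 at 18.5 CPM in astrocytes and 643 in oligodendrocytes. Olig2 was at 1.85 CPM in astrocytes, from 1 UMI, and 188 in oligodendrocytes. Rora, the paralog of Rorb, had 2302 CPM in astrocytes and 1043 in ependymal cells, 2.21 times (2.07 to 2.35). Hes5, a Notch target of astrocytes, had 131.5 CPM in astrocytes and 0.472 in ependymal cells, and Foxj1, the master factor of motile cilia, 7.41 in astrocytes and 537 in ependymal cells. Over the 12 paralogs, 10 were measured in astrocytes over ependymal cells, with 1 higher and 3 lower, and over 19 other glial and regional factors 15 were measured, with 8 higher and 3 lower. Of all genes measured in this pair, 17.4% were higher and 23.9% lower, so the paralog counts were near the shares of all genes. In astrocytes over oligodendrocytes the paralogs had 5 of 7 higher and 1 lower, and the other factors 11 of 17 higher and 6 lower. All genes measured in that pair had 26% higher and 17.1% lower. Nfic, the remaining NFI gene, was at 79.6 CPM in astrocytes, 121 in ependymal cells, 91.4 in oligodendrocytes and 95.6 in microglia.

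**Figure D5:**
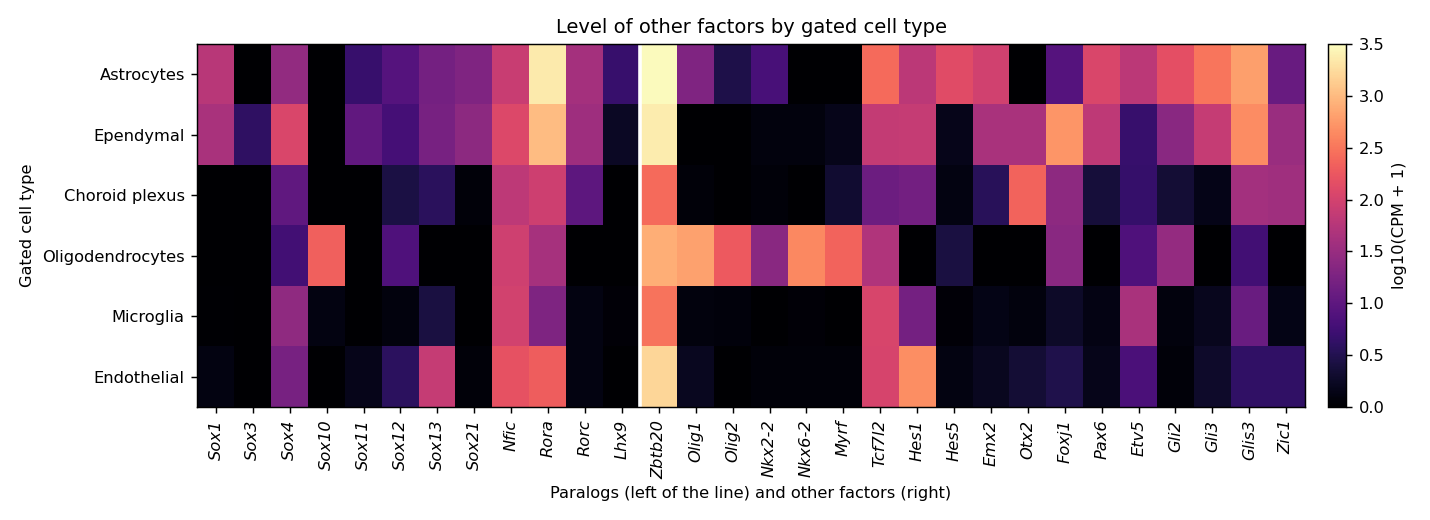
Levels of the 12 paralogs (left of the line) and of other glial and regional factors (right) by cell type, one gene per column, as log10(CPM + 1). Sox10, Olig1 and Olig2 are at 213, 643 and 188 CPM in oligodendrocytes, Foxj1 at 537 in ependymal cells and Rora at 2302 in astrocytes.

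Genes reported as targets of SOX9 or NFI proteins in glia were higher in astrocytes than in ependymal cells. The list was chosen with earlier results of these data known, and whether the factors act on these genes was not tested. All 8 (Apcdd1, Mmd2, Zcchc24, Gfap, Fabp7, Slc1a3, Tnc and Sparcl1) were at least 2-fold higher than in ependymal cells, beside 17.4% of genes. Gfap, the intermediate filament gene, had 1282 CPM in astrocytes and 297 in ependymal cells, 4.32 times (3.93 to 4.74). Mmd2 had 613 CPM in astrocytes and 61.9 in ependymal cells, 9.91 times (8.40 to 11.7), and Zcchc24 194 CPM in astrocytes and 20.1 in ependymal cells, 9.69 times (7.21 to 13.1). Apcdd1 was low in both, at 12.97 CPM in astrocytes and 2.13 in ependymal cells, and was at 346 CPM in endothelial cells. The extracellular matrix gene Tnc had 204 CPM in astrocytes, against 1.42 in ependymal cells. Against oligodendrocytes 6 of 8 were higher in astrocytes, measured on a background of 26%, and Zcchc24 was not set apart, at 1.02 times (0.776 to 1.34). Apcdd1, at 2.02 times (0.514 to 9.41), did not pass the 2-fold limit once 0.5 UMI was added to both sums.

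For each factor the 2 genes of most similar pattern were found among 7860 genes, by the root mean square difference of log2(CPM + 10) over 6 cell types. Lhx2 was nearest to Timp4 and Eya1 (0.14 each), Sox8 to Omg (0.17) and Dcc (0.29), and Rorb to Rgs20 (0.21) and Mmd2 (0.31). Sox2 was nearest to Adgrv1 (0.23) and Srgap3 (0.37), Sox5 to Nkain4 (0.37) and Plcd4 (0.39), Sox6 to Gpr37l1 (0.38) and Tenm3 (0.46), and Sox9 to Wwc1 (0.38) and Id4 (0.69). Among the NFI genes, Nfia was at 0.60 from Arhgap5 and 0.80 from Hnrnpa2b1, Nfib at 0.85 from Stox2 and 0.91 from Nckap1, and Nfix at 0.60 from Fgfr2 and 0.67 from Atxn7l3b.

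A small neuron gate, 29 cells with a median of 5 of the 8 neuronal markers per cell, carried a different part of the list. Nfib had 2436 CPM (2199 to 2692), Nfix 1433 (1252 to 1632) and Nfia 1206 (1041 to 1389), and Nfib and Nfix were each found in 28 of the 29 cells. Their Nfib and Nfix intervals lay wholly above those of astrocytes, and the Nfia intervals overlapped. Lhx2 had 303 CPM (223 to 402), in 15 cells. Sox5 and Sox9 had 88.4 CPM each (48.3 to 148), Sox6 31.6 (10.2 to 73.7), Sox2 56.8 (26.0 to 108) and Rorb 31.6 (10.2 to 73.7), all below the astrocyte intervals, and no Sox8 UMI was found, which allows up to 18.9 CPM. These cells held 1 Hopx UMI and 2 EGFP UMIs. The gate holds too few cells for more than these levels.

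Annotated genes that overlap a factor can share its reads, and the strand and intron settings of the counting are not given in the sources used here. In the RefSeq annotation 7 of the 10 factors were overlapped by another gene, such as Sox2ot at Sox2, and Sox8, Sox9 and Rorb by none. Of 19 overlapping genes, 2 were listed as features of the matrix, so RNA of the others could not be counted apart.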

How the data were processed

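The authors deposited a matrix of UMI counts from a 10x 3' library; the submitters' processing notes name Cell Ranger 8.0.1 and GRCm39. The 10 factors and all gene lists were chosen with earlier results of these data known. Barcodes were filtered at 500 genes and 15% mitochondrial UMIs, which removed 187 of 6672. Kept barcodes had a median of 5564 UMIs, from 610.0 to 42440. Of the 6485, 5864 passed the gate for 1 of 13 classes and 621 (9.58%) did not. UMIs were summed per class and scaled per 1000000. Doublets were kept; Scrublet (in scanpy 1.11.5, expected rate 0.05) called 261 (4.02%), which were left out in an alternative. Cells were thinned with seed 1. Levels have Poisson, shares Clopper-Pearson and ratios binomial exact intervals at 95%, and a sum of 0 is given with a floor of 3 counts over the group. Named genes are the 10 factors, 39 genes of fixed lists, the 2 nearest genes of each factor (over genes reaching 50 CPM in any type), Hopx and the reporters. Interval coverage was checked on simulated data. Python 3.11.15, numpy 2.4.6, scipy 1.17.1, pandas 2.3.3 and matplotlib 3.10.9 were used. Values of 1 listed gene are not reported here. Replicates do not exist, so no test was run.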

Additional observations from a re-analysis of the deposited data

How the results depend on the processing

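Of 89 counts of factors past the 2-fold limit under alternatives (those higher between cell types, those higher or lower within a type), 84 stayed within 1.5 times the reported count. With a fold of 1.5 in place of 2, 5 factors in place of 3 were higher in astrocytes than in ependymal cells, and with at least 50 UMIs, 3 in place of 6 were higher in oligodendrocytes than in microglia. In interferon-high astrocytes 1 factor in place of 0 passed after thinning to 2000 UMIs. In tdTomato-positive astrocytes 2 factors in place of 0 passed with at least 1000 genes and at most 5% mitochondrial UMIs, and 1 after thinning. Factors lower in astrocytes than in ependymal cells were 2 in place of 1 with the gate of 4 markers, with cells weighed equally, with at most 1 marker of another class and at a fold of 1.5, and 0 at a fold of 4. Factors lower in astrocytes than in oligodendrocytes were 2 in place of 1 after thinning (Nfix, log2 ratio -1.02) and at a fold of 1.5, and 0 at a fold of 4. The causes of these shifts were not tested, except that fewer factors are measured at 50 UMIs. Of 656 single ratios, 75 left the reported interval and 0 of those whose interval excluded 1 changed direction. Most of the 75 came with thinning (25 of 106), at most 1 marker of another class (22 of 68) and totals without Ttr (11 of 19). The limit of 1 marker of another class kept 149 of 653 ependymal cells and 69 of 577 choroid plexus cells. The stricter cell filter kept 61 of 131 astrocytes, and the log2 ratio of Sox2 in astrocytes over ependymal cells was then -0.63, against -0.97. Nfib in astrocytes over microglia had a log2 ratio of 8.75 without called doublets and 7.99 with them. Depth limits the lowest levels: neighbours in a factor's order were not told apart where their intervals overlapped, as for Rorb and Lhx2 outside astrocytes and ependymal cells in the 6 types. No paired analysis was possible because each group has 1 sample.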
